A study of Mus musculus with 59 samples.

Results

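The calcitonin and amylin receptor family was followed across 3 brain regions and 2 treatments in mice. Its members were taken by gene symbol and not by any measured value: the calcitonin receptor gene Calcr, the calcitonin receptor-like receptor gene Calcrl, and the receptor activity-modifying protein genes Ramp1, Ramp2 and Ramp3. These are 5 of the 21935 genes in the count table. The RNA came from C57BL/6 mice that received, by intraperitoneal injection, vehicle or a single acute dose of the agent that the labels call IP118/PY115, and were killed after 4 h. From frozen brain sections of 10 µm, laser capture took 4 mm² per region and animal from 2 hypothalamic nuclei, the paraventricular (PVN) and the arcuate (ARC), and from the hindbrain nucleus of the solitary tract (NTS). Each combination of region and treatment had 10 libraries, except vehicle ARC, which had 9. The series is titled as a study of joint PYY and GLP-1 receptor activation in obese-diabetic mice, but the sample labels name no diet, age or sex, so what else these groups share is not given in the sources used here.

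Calcr and Calcrl encode class B G-protein-coupled receptors that signal mainly through Gs and cyclic AMP. RAMPs are single-pass membrane proteins that travel with them to the cell surface and set which peptide they bind. Calcr alone is the calcitonin receptor, and with a RAMP it becomes an amylin receptor. Calcrl needs a RAMP: with Ramp1 it is the receptor for calcitonin gene-related peptide (CGRP), and with Ramp2 or Ramp3 it is an adrenomedullin receptor, the Ramp2 form being well known from vascular endothelium. In the brain, amylin acts on the area postrema beside the NTS and on the hypothalamus to end meals.

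Library totals ran from 3964093 to 28510118 counts. The summed level of 5 PVN neuron genes was highest where the labels place it, at 8646 to 21275 CPM in vehicle PVN libraries. It was at most 473 CPM in vehicle ARC and 4.55 CPM in vehicle NTS. Sums for ARC and NTS neuron genes are not given here. Here CPM is the count scaled to the library total after TMM scaling for differences in RNA composition between libraries. In each region, vehicle library 1 and treated library 1 had the level of the opposite treatment for 8 glucocorticoid-responsive genes. In NTS, for example, vehicle 1 had a mean of 5.62 on the log2(CPM + 1) scale against 4.12 to 4.78 in the other 9 vehicle libraries, and treated 1 had 4.35 against 5.24 to 5.87. All values below keep the deposited labels, and where leaving out these 6 libraries changes a call or moves a value that a statement rests on, that value is given too. Since those libraries were singled out by their expression, a p-value computed after leaving them out is too small. Of the ARC libraries, 4 (vehicle 4 and 8, treated 1 and 2) carried Shox2, a homeobox gene known from the thalamus, at 3.18 to 16.9 CPM, against at most 0.821 CPM in the other 15.

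All 5 genes had counts in each of the 59 libraries. On GRCm38, Calcr lies on chromosome 6 (3685680 to 3764714, minus strand), Calcrl on chromosome 2 (84330626 to 84425411, minus), Ramp1 on chromosome 1 (91179822 to 91225196, plus), Ramp2 on chromosome 11 (101246028 to 101259546, plus) and Ramp3 on chromosome 11 (6658521 to 6677475, plus). RefSeq promoter windows of 300 bases (GRCm38.p6) were matched for 4 of the 5 genes. The 100 bases directly before each annotated transcript start are shown because the 2 receptor genes had opposite regional patterns, and capitals mark CpG dinucleotides; the lines give the gene, the GENCODE transcript that starts there, and the position and strand.
Calcr (Calcr-202, chr6:3764715-3764814, minus): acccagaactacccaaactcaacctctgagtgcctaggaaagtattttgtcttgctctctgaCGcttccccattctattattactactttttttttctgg
Calcr (Calcr-205, chr6:3763631-3763730, minus): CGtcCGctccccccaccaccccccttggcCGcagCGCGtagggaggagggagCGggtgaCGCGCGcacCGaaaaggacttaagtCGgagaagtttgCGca
Calcrl (Calcrl-201, chr2:84425412-84425511, minus): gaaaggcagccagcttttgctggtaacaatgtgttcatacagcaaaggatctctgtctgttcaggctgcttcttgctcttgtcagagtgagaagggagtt
Ramp1 (Ramp1-202, chr1:91179722-91179821, plus): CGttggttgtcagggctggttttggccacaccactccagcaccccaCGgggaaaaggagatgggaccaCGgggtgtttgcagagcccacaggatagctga
Ramp3 (Ramp3-201, chr11:6658421-6658520, plus): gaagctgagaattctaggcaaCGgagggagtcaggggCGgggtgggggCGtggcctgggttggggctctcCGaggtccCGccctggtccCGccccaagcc

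Calcr thus has a CpG-poor and a CpG-rich start. The 300-base window of the first holds 4 CpG and that of the second 29, a number that 12.9% of the 32851 promoter windows reach or exceed. Calcrl has 7 CpG in its window, Ramp1 has 6 and Ramp3 has 15, beside a median of 7. The cyclic AMP response element TGACGTCA, searched on both strands, is in none of the 5 windows and in 1.79% of all windows. The counts are per gene, so the part of each Calcr start in the level was not measured.

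Calcr was high in both hypothalamic regions and low in NTS. In vehicle PVN it ran from 168 to 244 CPM with a median of 202, in vehicle ARC from 132 to 197 CPM with a median of 159.8, and in vehicle NTS from 12.4 to 26.2 CPM with a median of 16.9. The NTS libraries were below every hypothalamic library, and the PVN and ARC ranges overlapped. The log2 difference was 3.55 ± 0.13 (SE) for PVN over NTS (FDR 2.30e-32), an 11.7-fold higher level, and 3.24 ± 0.13 for ARC over NTS (FDR 1.54e-30). FDR is the Benjamini-Hochberg adjusted p of edgeR's quasi-likelihood test over all genes, and genes under 0.05 are called. The difference of PVN over ARC was small, 0.31 ± 0.11 (FDR 0.0213), and was not called with library totals alone as scaling (0.24, FDR 0.0749), nor without the 5 vehicle libraries titled 5553 to 5557 (0.22, FDR 0.184) or without the 4 ARC libraries with Shox2 (0.26, FDR 0.0621). Between the treated groups it was 0.44 ± 0.11 (FDR 7.06e-04).

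Calcrl, the CGRP and adrenomedullin receptor, had the reverse pattern. It ran from 41.1 to 65.0 CPM in vehicle NTS (median 56.8), from 11.1 to 26.3 CPM in vehicle PVN (median 17.1) and from 4.28 to 10.1 CPM in vehicle ARC (median 8.08). No library of any of these 3 groups fell in the range of another. NTS was above PVN by a log2 difference of 1.70 (PVN over NTS -1.70 ± 0.11, FDR 1.05e-20) and above ARC by 2.93 (ARC over NTS -2.93 ± 0.13, FDR 3.23e-30). PVN was above ARC by 1.22 ± 0.13 (FDR 2.18e-12). Captured tissue holds many cell types, and fewer cells of a type cannot be told apart here from less RNA per cell.

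Ramp1, the partner that makes Calcrl a CGRP receptor, was similar in PVN and NTS and lower in ARC. Vehicle values ran from 66.6 to 78.7 CPM in PVN (median 71.4), from 48.4 to 79.2 CPM in NTS (median 69.6) and from 27.4 to 54.9 CPM in ARC (median 34.4). The ARC range lay below the PVN range and met the NTS range only through vehicle ARC 9 at 54.9 CPM. PVN exceeded ARC by 0.98 ± 0.10 on the log2 scale (FDR 2.04e-13), and ARC minus NTS was -0.90 ± 0.10 (FDR 2.09e-12). For PVN over NTS the difference was 0.08 ± 0.09 with a 95% interval from -0.10 to 0.27 (FDR 0.4496), so the test did not separate these 2 regions.

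Ramp2, the adrenomedullin partner, was highest in PVN, intermediate in NTS and lowest in ARC. Vehicle values ran from 12.9 to 30.8 CPM in PVN (median 20.1), from 11.7 to 18.7 CPM in NTS (median 15.6) and from 4.18 to 12.1 CPM in ARC (median 7.53). PVN and ARC did not overlap, while NTS overlapped both others. PVN was above ARC by 1.55 ± 0.15 (FDR 1.32e-13) and above NTS by 0.48 ± 0.14 (FDR 0.00233), and ARC minus NTS was -1.07 ± 0.15 (FDR 9.28e-09). The PVN excess over NTS was not called between the treated groups (0.24 ± 0.13, FDR 0.116). In the annotation, exons of Ramp2 overlap exons of Vps25 on the same strand. Vps25, an ESCRT gene, was listed at 0 to 1.97 CPM, and how the counting treated the shared exons is not given in the sources used here, so the level of Ramp2 is uncertain.

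Endothelial markers had the same regional order as Ramp2. All 10 of them were called higher in PVN than in ARC and NTS and lower in ARC than in NTS. Their summed level was 388 to 548 CPM in vehicle PVN, 203 to 271 CPM in NTS and 113 to 155 CPM in ARC, and none was at 0. Mural markers, of pericytes and vascular smooth muscle, were called higher in PVN than in ARC for 10 of 10 and than in NTS for 5 of 10, and lower in ARC than in NTS for 7 of 10. Of all genes, 46%, 56.1% and 61.7% were called in either direction in these pairs. With the mean of the endothelial markers as a covariate, Ramp2 was called in no pair of regions (PVN over ARC 0.40, FDR 0.574; PVN over NTS -0.11, FDR 0.735; ARC over NTS -0.51, FDR 0.0827). In the same fit Calcrl kept its call in all 3 pairs, Ramp1 was not called for PVN over ARC (0.29, FDR 0.543), Calcr was not called for PVN over ARC (0.74, FDR 0.163), and Ramp3 was not called for ARC over NTS (-0.83, FDR 0.1196). Calls over all genes fell too in that fit, from 6610 to 1978 for PVN over ARC and from 8874 to 4949 for ARC over NTS. The SE of Ramp2 for PVN over ARC rose from 0.15 to 0.41. Lost calls were thus not particular to the members. The markers and the regions differ together, and their part in the regional levels cannot be told apart. Glia also differed: the summed level of 7 oligodendrocyte markers was 2173 to 6606 CPM in vehicle NTS, 892 to 1288 CPM in PVN and 474 to 1274 CPM in ARC, and that of 5 astrocyte markers was 1748 to 2561, 1040 to 1853 and 618 to 808 CPM. Their part in the levels of Calcrl and Ramp3, which were highest in NTS, was not tested.

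Ramp3, which forms an adrenomedullin receptor with Calcrl and an amylin receptor with Calcr, rose in order from PVN to ARC to NTS. Vehicle values ran from 2.24 to 7.96 CPM in PVN (median 3.87), from 4.95 to 25.1 CPM in ARC (median 7.14) and from 15.8 to 39.2 CPM in NTS (median 23.5). PVN and NTS did not overlap, and ARC overlapped both. The log2 difference was -2.68 ± 0.25 for PVN over NTS (FDR 5.50e-14), -1.36 ± 0.26 for PVN over ARC (FDR 1.67e-05) and -1.33 ± 0.23 for ARC over NTS (FDR 1.55e-06). The level in ARC rested in part on 3 libraries, at 25.1 CPM in vehicle 8, 17.5 CPM in vehicle 4 and 16.7 CPM in treated 1, against 4.95 to 9.11 CPM in the other 16.

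Those 3 libraries were among the 4 with Shox2. Prkcd, a protein kinase C gene abundant in thalamus, stood at 171 CPM in vehicle 8, 137 CPM in treated 1 and 45.8 CPM in vehicle 4. The 15 libraries without Shox2 had 3.72 to 10.1 CPM. Treated 2 had Prkcd at 45.1 CPM but Ramp3 at 5.61 CPM. These genes were picked after their values were seen, and their part in the Ramp3 level was not tested. Without the 4 libraries, Ramp3 in vehicle ARC was 6.58 ± 1.65 CPM (SD, n = 7) in place of 9.85 ± 6.91 CPM (n = 9), and the difference of PVN over ARC was -0.76 ± 0.20 (FDR 0.00117).

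**Figure D1:**
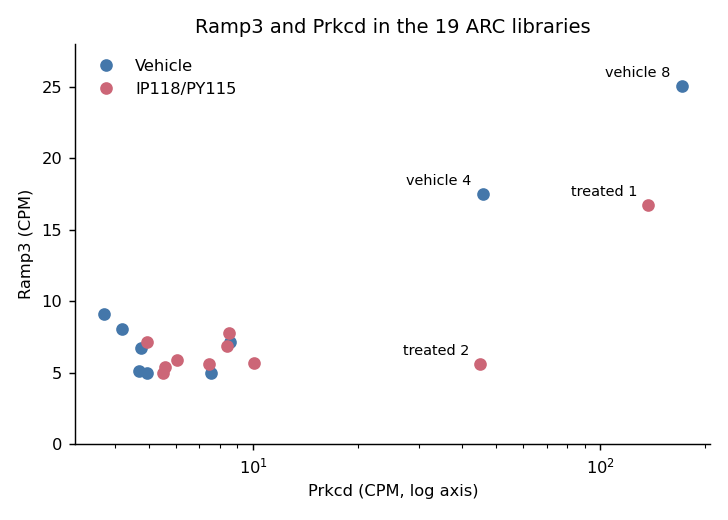
Ramp3 (vertical axis, CPM) against Prkcd (horizontal axis, CPM, log scale) in the 19 ARC libraries, 1 point per library, with the 4 libraries that carried Shox2 named. The 3 libraries with Ramp3 at 16.7 CPM or more have Prkcd at 45.8 to 171 CPM, and treated 2 has Prkcd at 45.1 CPM with Ramp3 at 5.61 CPM.

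Read against the whole table, regional calls were frequent among all genes. All 5 members were called between vehicle PVN and ARC, where 46% of 14379 genes were called. Between PVN and NTS 4 of 5 were called beside 56.1% of genes, and between ARC and NTS 5 of 5 beside 61.7%. The groups did not overlap for 3 members between PVN and ARC (11.6% of genes), for 3 between PVN and NTS (13.2%) and for 2 between ARC and NTS (22.6%). The median log2 difference of the members was 0.98, 0.08 and -1.07 in the 3 pairs, beside 0.01, 0.00 and -0.01 over all genes.

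**Figure D2:**
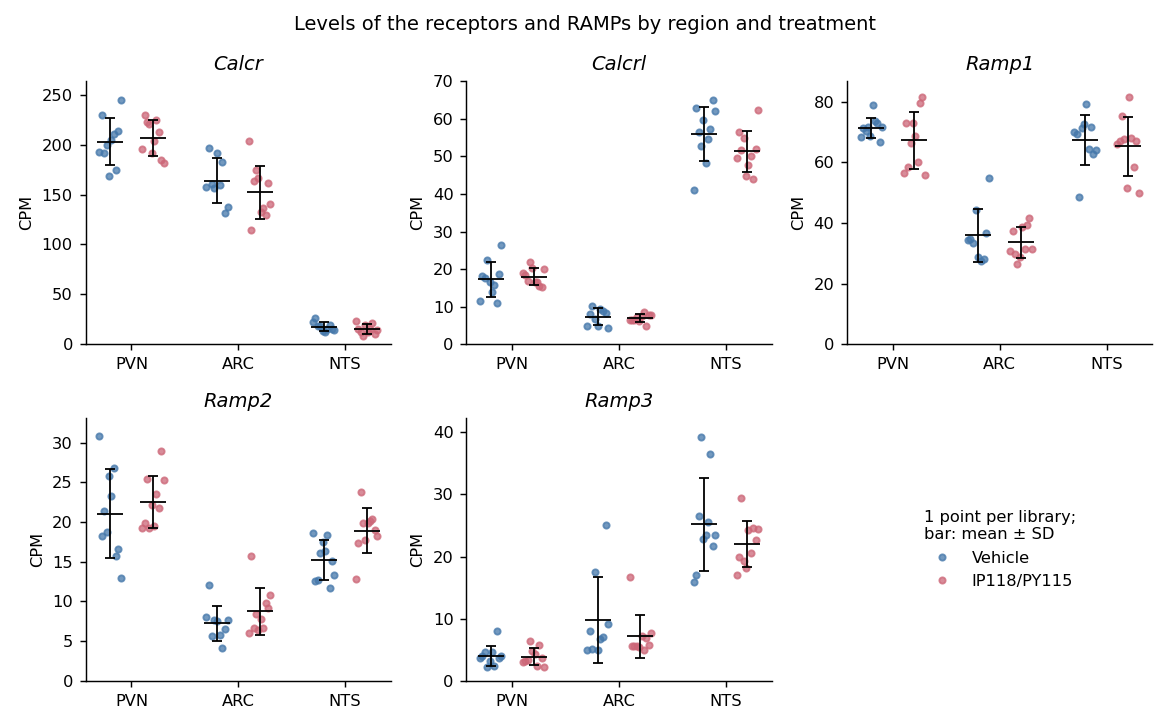
Level of each gene (vertical axis, CPM, a scale of its own per panel) in the 59 libraries by region and treatment, 1 point per library, with bars at the mean ± SD of a group. Calcr is high in PVN and ARC, Calcrl and Ramp3 are high in NTS, and vehicle and treated points overlap in every panel and region.

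Levels of different genes were compared per kilobase of the longest principal coding transcript, 3763 nt for Calcr, 4882 for Calcrl, 2325 for Ramp1, 1178 for Ramp2 and 1233 for Ramp3. The place of Ramp2 in these orders is uncertain because of the exons it shares with Vps25. In vehicle PVN the order was Calcr (54 CPM per kb), Ramp1 (30.7), Ramp2 (17.9), Calcrl (3.53) and Ramp3 (3.28). The first 3 steps of that order held in 10 of 10 libraries with no overlap, and Calcrl was above Ramp3 in 6 of 10. In vehicle ARC Calcr (43.6 CPM per kb) again stood first, Ramp1 (15.4) was above Ramp3 in 8 of 9 libraries with overlapping ranges, and Calcrl (1.49) was below all RAMPs, while Ramp3 (7.99) and Ramp2 (6.14) could not be ordered, with Ramp3 higher in 5 of 9 libraries. In vehicle NTS the means of Ramp1 and Ramp3 on this scale stood above those of both receptors. The order of the means was Ramp1 (29 CPM per kb), Ramp3 (20.5), Ramp2 (12.9), Calcrl (11.5) and Calcr (4.64). There Ramp1 exceeded Ramp3 in 8 of 10 libraries and Ramp3 exceeded Ramp2 in 9 of 10, with overlapping ranges, Ramp2 exceeded Calcrl in 5 of 10, and Calcrl exceeded Calcr in 10 of 10 without overlap. The treated groups had the same order in PVN (Calcr at 54.9, Ramp1 at 29, Ramp2 at 19.1, Calcrl at 3.68 and Ramp3 at 3.18 CPM per kb). In treated ARC Ramp2 (7.43) was above Ramp3 (5.81) in 9 of 10 libraries, and in treated NTS Ramp2 (16.1) was above Calcrl (10.51) in 10 of 10, with overlapping ranges in both.

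The make-up of the family followed from these levels. Of the length-scaled sum of the 2 receptors, Calcr made up 93.9 ± 1.23% in vehicle PVN, 96.7 ± 1.06% in ARC (n = 9) and 28.7 ± 6.06% in NTS (SD, n = 10 unless given). PVN and ARC each differed from NTS, by 65.2 percentage points (adjusted p = 6.50e-05, permutation test) and 67.9 points (adjusted p = 6.50e-05, exact permutation test). All tests of shares are two-sided and adjusted over 24 comparisons, and these p-values come from the smallest that the resampling or enumeration can give. PVN and ARC differed by 2.75 points, ARC being higher (PVN minus ARC -2.75, adjusted p = 4.45e-04, exact permutation test). The share of a transcript says nothing of whether receptor and RAMP are made in the same cell.

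Among the RAMPs, Ramp1 held the largest mean share in each region: 59.6 ± 5.14% in vehicle PVN, 53.2 ± 7.87% in ARC and 46.6 ± 5.02% in NTS. Ramp2 enters the sum, so every RAMP share carries the uncertainty from the exons that Ramp2 shares with Vps25. Ramp3 held 6.38 ± 2.57% in PVN (3.56 to 12.6%), 25.3 ± 10.7% in ARC (15.8 to 48.8%) and 32.5 ± 7.0% in NTS (21.9 to 42.1%). PVN lay below both others with no overlap (adjusted p = 6.50e-05 for each, permutation test against NTS and exact permutation test against ARC), and the test did not separate ARC from NTS (-7.20 points, adjusted p = 0.182, exact permutation test). That comparison rested on the 2 vehicle ARC libraries with Shox2, whose Ramp3 shares were 48.8% and 35.7%. Without them Ramp3 held 20.4% in vehicle ARC (n = 7), and the difference of ARC over NTS was -12.0 points (adjusted p = 0.00416, exact permutation test). Those 2 had the highest Ramp3 shares of the vehicle ARC libraries and were singled out after their values were seen. The larger difference and the small p without them follow in part from that choice. Ramp2 held 34 ± 6.44% in PVN, 21.5 ± 6.34% in ARC and 20.9 ± 3.55% in NTS. It was higher in PVN than in ARC by 12.6 points (adjusted p = 0.00234, exact permutation test) and than in NTS by 13.1 points (adjusted p = 9.60e-05, permutation test). For ARC over NTS the Ramp2 difference was 0.596 points (adjusted p = 0.846, exact permutation test).

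**Figure D3:**
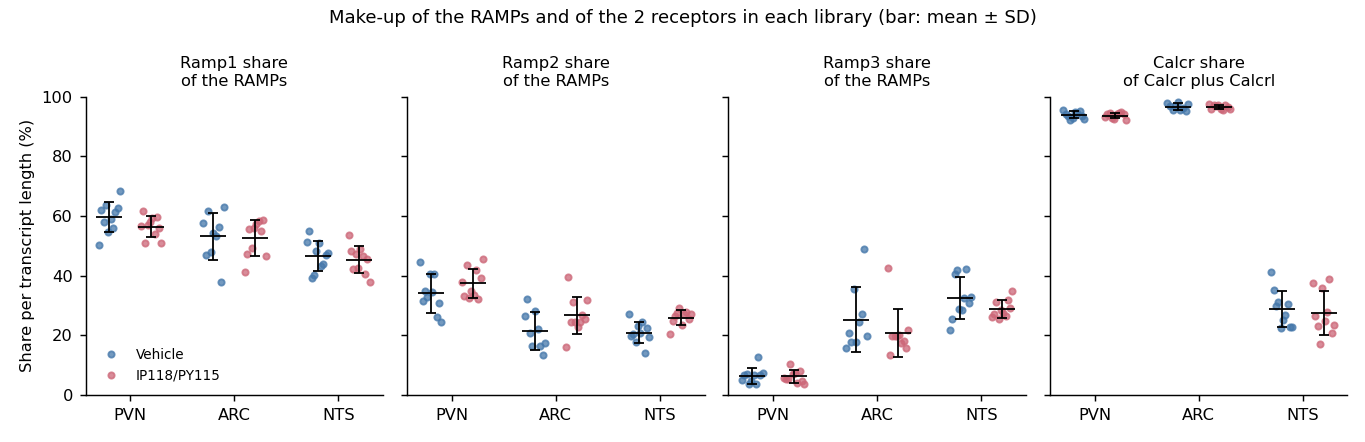
Share (vertical axis, %) of each RAMP in the length-scaled sum of the 3 RAMPs, and of Calcr in the sum of Calcr and Calcrl, by region and treatment, 1 point per library with the mean ± SD. The share of Calcr in the receptor sum is at least 92.0% in the PVN libraries, at least 95.3% in ARC and at most 41.1% in NTS, and the Ramp3 share is at most 12.6% in PVN.

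The treatment comparison asks whether a single dose changed these genes within 4 h, and no member was called in any region. In PVN 0 of 5 members were called beside 0.656% of 13409 genes, in ARC 0 of 5 beside 0% of 13484, and in NTS 0 of 5 beside 0% of 13696. At an unadjusted p under 0.05, edgeR gave 0 members in PVN, 0 in ARC and 1 in NTS, beside 1253, 971 and 795 genes. DESeq2 called 0 members in each region and 59 genes in ARC and 63 in NTS. Vehicle and treated ranges overlapped in all 15 comparisons.

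Calcr ran from 181 to 229.5 CPM in treated PVN (median 208), from 114 to 203 CPM in treated ARC (median 151) and from 8.71 to 23.1 CPM in treated NTS (median 14.8). The log2 fold change over vehicle was 0.03 (95% interval -0.10 to 0.15) in PVN, -0.10 (-0.30 to 0.09) in ARC and -0.20 (-0.55 to 0.14) in NTS. Calcrl ran from 15.2 to 21.8 CPM in treated PVN (median 17.6), from 4.97 to 8.54 CPM in ARC (median 6.88) and from 44.1 to 62.3 CPM in NTS (median 50.9). Vehicle and treated ranges overlapped for both receptors in each region. For Calcrl the fold changes were 0.07 (-0.18 to 0.32), -0.08 (-0.41 to 0.24) and -0.13 (-0.28 to 0.03), and in NTS 9 of 10 treated libraries were below the vehicle median (FDR 0.999). Without the libraries numbered 1, Calcrl in NTS was -0.16 (-0.31 to -0.02, FDR 0.555). Without the 4 ARC libraries with Shox2, Calcr in ARC was -0.17 (-0.33 to -0.02, FDR 0.633). Neither was called, and both sets of libraries were singled out by their expression, so these intervals are too narrow.

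Ramp1 ran from 56 to 81.5 CPM in treated PVN (median 67.6), from 26.4 to 41.6 CPM in ARC (median 31.5) and from 50 to 81.5 CPM in NTS (median 67.0). Its fold changes were -0.09 (95% interval -0.22 to 0.05), -0.10 (-0.34 to 0.14) and -0.05 (-0.22 to 0.12). Ramp1 thus had the narrowest intervals of the RAMPs and Ramp3 the widest. Ramp3 ran from 2.22 to 6.45 CPM in treated PVN (median 3.47), from 5.01 to 16.7 CPM in ARC (median 5.76) and from 17.1 to 29.5 CPM in NTS (median 21.7). The fold changes of Ramp3 were 0.01 (-0.43 to 0.45) in PVN, -0.47 (-1.16 to 0.22) in ARC and -0.19 (-0.48 to 0.09) in NTS. In ARC that of Ramp3 was -0.11 ± 0.17 (FDR 0.971) without the 4 libraries with Shox2, and -0.79 (FDR 0.278) without the libraries numbered 1.

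Ramp2 in NTS had the smallest p of the 15 comparisons. Vehicle libraries ran from 11.7 to 18.7 CPM (median 15.6) and treated libraries from 12.8 to 23.8 CPM (median 19.4), and 9 of 10 treated libraries were above the vehicle median. The fold change was 0.32 ± 0.10 (95% interval 0.11 to 0.53; unadjusted edgeR p = 0.00436), which did not pass over all genes (FDR 0.359). The highest vehicle library and the lowest treated library were both those numbered 1, at 18.7 and 12.8 CPM. Without the libraries numbered 1, vehicle was 14.8 ± 2.36 CPM and treated 19.6 ± 1.92 CPM (SD, n = 9 each), and Ramp2 was called (0.40, FDR 0.0264) beside 0.982% of 13744 genes called higher. In PVN the fold change of Ramp2 was 0.07 (-0.18 to 0.33) and in ARC 0.27 (-0.10 to 0.65), and neither was called without those libraries (0.18, FDR 0.613; 0.35, FDR 0.678).

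Within the RAMPs of NTS, the share of Ramp2 was 20.9 ± 3.55% with vehicle (14.2 to 27%) and 25.9 ± 2.5% with IP118/PY115 (20.4 to 29%, SD, n = 10 each). The difference of 5.03 percentage points passed among the 24 comparisons of shares (adjusted p = 0.00571, permutation test). It was 6.31 points without the libraries numbered 1, 3.66 points with no length scaling and 3.07 points with coding lengths in place of transcript lengths, and passed in each. Of the 10 endothelial markers, none was called in NTS between treatments (1 higher without the libraries numbered 1), their sum was 203 to 271 CPM with vehicle and 216 to 262 CPM with IP118/PY115, and the fold change of Ramp2 was 0.31 with their mean as a covariate (FDR 0.303). Of the mural markers 7 of 10 had a higher estimate with treatment (median 0.12) and of the oligodendrocyte markers 7 of 7 (median 0.25), with none called, beside a median of 0.00 over all genes. The summed oligodendrocyte level was 2173 to 6606 CPM with vehicle and 2014 to 9391 CPM with IP118/PY115, and the part of these cells in the Ramp2 level was not tested. A share does not depend on scaling between libraries, and it also moves with the other RAMPs, whose fold changes in NTS were -0.05 and -0.19. The members were chosen with earlier results known, and the test over all genes above is the one that covers that choice. No other share passed between treatments, the closest being Ramp2 in ARC (5.20 points, adjusted p = 0.179, exact permutation test). Without the libraries numbered 1, the Ramp3 share in ARC also passed (-8.10 points, adjusted p = 0.0378, exact permutation test). Leaving them out removes treated ARC 1, with Shox2 and a Ramp3 share of 42.5%. It keeps vehicle ARC 8 (48.8%) and vehicle ARC 4 (35.7%), which also carried Shox2. Without the 4 ARC libraries with Shox2 the difference was -1.45 points (adjusted p = 0.508, exact permutation test). Both sets of libraries were singled out after their values were seen.

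**Figure D4:**
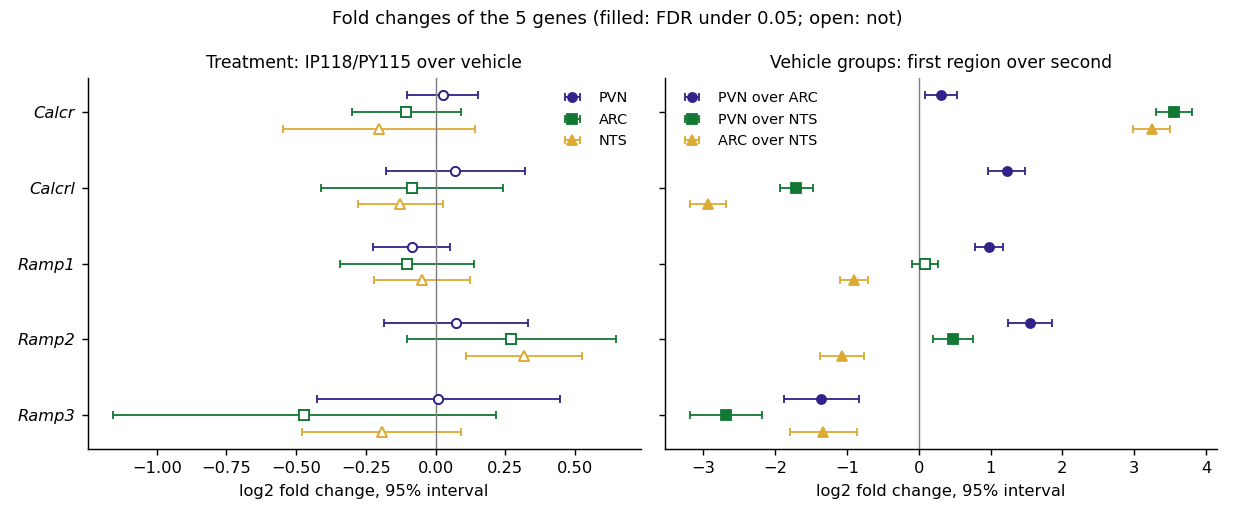
log2 fold change (horizontal axis) with its 95% interval for each gene, left for IP118/PY115 over vehicle in each region and right for pairs of vehicle regions; filled symbols passed an FDR of 0.05 and open ones did not. All treatment estimates lie between -0.47 and 0.32 and are open, and only Ramp1 for PVN over NTS is open among the regional ones.

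The treatment effect was not shown to differ between regions for any member. Differences of the effects on the log2 scale ran from -0.28 (Ramp3, ARC against NTS) to 0.50 (Ramp3, PVN against ARC). That of Ramp3 between PVN and ARC was 0.14 without the 4 ARC libraries with Shox2 (unadjusted edgeR p = 0.614) and 0.87 without the libraries numbered 1 (unadjusted edgeR p = 0.0145, FDR 0.475). In edgeR's joint fit of the 59 libraries, 0 of 5 members were called for PVN against ARC (0.0487% of genes), 0 for PVN against NTS (0.0904%) and 0 for ARC against NTS (0%), with 0 at an unadjusted p under 0.05 and 0 by DESeq2 in each.

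Ligand transcripts were scarce in the captured tissue, apart from Calca in NTS. Calca, which encodes calcitonin and CGRP, stood at 9.52 ± 2.52 CPM in vehicle NTS, 1.59 ± 0.990 CPM in ARC and 0.676 ± 0.589 CPM in PVN, and was called higher in NTS than in PVN (PVN over NTS -3.67 ± 0.38, FDR 9.19e-13) and in ARC (ARC over NTS -2.61 ± 0.35, FDR 2.81e-09). Calca was also called lower in PVN than in ARC (-1.07 ± 0.43, FDR 0.0363). Adm, the adrenomedullin gene, stood at 1.04 ± 0.535 CPM in NTS, 0.601 ± 0.480 CPM in ARC and 0.372 ± 0.281 CPM in PVN. Adm was called lower in PVN than in NTS (-1.27 ± 0.46, FDR 0.0143). It was not called for PVN over ARC (-0.47, FDR 0.468) or ARC over NTS (-0.81, FDR 0.109). Iapp, the amylin gene, had no count in any PVN library, 5 counts in all of vehicle ARC and 3 in all of vehicle NTS. Adm2 had no count in vehicle PVN or ARC and 1 in vehicle NTS. Over the vehicle PVN libraries a count of 0 allows up to 0.0340 CPM (3 counts in the group). Calcb, the other CGRP gene, had no count in vehicle PVN, and 12 counts over the vehicle libraries of ARC, 7 of 9 being at 0. In NTS it had 14 counts over the vehicle libraries, 5 of 10 being at 0, and 59 counts over the treated libraries, of which all 10 had a count (0.0845 to 0.849 CPM). Calcb was under the filter on low counts there, so this was not tested. These are transcripts at the site of capture, and peptide that arrives by blood or by axons is not measured. The filter on low counts left no ligand for the treatment test in PVN, 1 in ARC and 2 in NTS. None of these was called. Their fold changes were -0.62 ± 0.37 for Calca in ARC (FDR 0.743), 0.09 ± 0.22 for Calca in NTS (FDR 0.999) and 0.45 ± 0.29 for Adm in NTS (FDR 0.999).

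Of 11 other receptors reported to pair with RAMPs, 10 could be tested between regions. PVN over ARC was called higher for 5 and lower for 5, PVN over NTS higher for 3 and lower for 4, and ARC over NTS higher for 5 and lower for 4. Of all genes, 46%, 56.1% and 61.7% were called in these pairs. The corticotropin-releasing hormone receptor gene Crhr1 stood at 24.7 ± 4.65 CPM in vehicle ARC and 2.56 ± 1.20 CPM in PVN (-3.26 ± 0.29, FDR 1.82e-14). The secretin receptor gene Sctr stood at 11.1 ± 3.22 CPM in NTS and 1.36 ± 0.492 CPM in PVN (-3.01 ± 0.29, FDR 2.92e-14), as did the calcium-sensing receptor gene Casr on the NTS side (5.23 ± 1.62 against 0.0575 ± 0.0808 CPM). The GLP-1 receptor gene Glp1r had the opposite order, with 15.1 ± 6.67 CPM in PVN and 0.781 ± 0.567 CPM in NTS (4.21 ± 0.34, FDR 3.26e-16). The parathyroid hormone receptor gene Pth1r was lower in ARC, at 4.43 ± 1.38 CPM, than in NTS, at 12.7 ± 2.13 CPM (-1.50 ± 0.13, FDR 1.64e-15).

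With treatment, none of these receptors was called: 0 of 8 tested in PVN and in ARC and 0 of 7 in NTS. The smallest p was that of Crhr1 in ARC, which ran from 24.7 ± 4.65 to 33.3 ± 5.27 CPM (0.43 ± 0.10, FDR 0.134). Without the libraries numbered 1, Crhr1 in ARC was the 1 receptor of 8 that was called (0.51 ± 0.10, FDR 0.00815). In that setting 153 of all genes were called in ARC, in place of 0 with all libraries. Those libraries were singled out by their expression, so this FDR is too small. With all libraries, the fold change of Crhr1 in PVN was 0.51 ± 0.24 (FDR 0.517). The median fold change of the list was -0.04 in PVN, 0.01 in ARC and -0.13 in NTS, beside -0.02, 0.00 and 0.00 over all genes.

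The genes for coupling and trafficking were expressed in all regions, and all 9 could be tested. They include Gnas, the Gs alpha subunit, and Crcp, the CGRP receptor component that couples Calcrl to it. Arrb1, the beta-arrestin that uncouples and internalizes receptors, was the most regional: it stood at 336 ± 46.1 CPM in vehicle NTS, 216 ± 15.4 CPM in PVN and 126 ± 8.37 CPM in ARC (ARC over NTS -1.41 ± 0.09, FDR 5.94e-21). Nherf1 (also Slc9a3r1), a PDZ protein known to hold Ramp3-bearing receptors at the membrane, followed the same order with 63.9 ± 8.11, 46 ± 8.62 and 31.2 ± 4.93 CPM (ARC over NTS -1.03 ± 0.09, FDR 4.47e-15). Over the list, PVN over ARC was called higher for 4 and lower for 1, PVN over NTS higher for 1 and lower for 4, and ARC over NTS higher for 1 and lower for 5. These counts are near the shares over all genes, where 46%, 56.1% and 61.7% were called in the same pairs. None of the 9 was called between treatments in any region, and the smallest p was that of Crcp in NTS (0.17 ± 0.06, FDR 0.467).

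Within a region, receptors and RAMPs did not rise and fall together detectably. Over 33 relations (each receptor with each RAMP, and each member with the endothelial marker mean, as deviations from the group means in the 19 or 20 libraries of a region), none had an adjusted permutation p under 0.05. The largest was Ramp2 with the endothelial mean in ARC (Pearson r = 0.65, adjusted p = 0.14; Spearman rho = 0.48, adjusted p = 0.291; both permutation tests), and it fell to r = 0.24 without the 2 libraries farthest from the median. For Calcrl with the endothelial mean, r was -0.09 in PVN, -0.23 in ARC and 0.21 in NTS. Calcr and Ramp1 in ARC had r = -0.55 (adjusted permutation p = 0.223) and rho = -0.60 (adjusted permutation p = 0.261).

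Ramp2 was also set beside the 8 glucocorticoid-responsive genes, a family of 15 relations added after its nearest genes had been seen. Klf9, one of the 8, was among those nearest genes, so the p-values of Ramp2 in this family are too small. Within treatment groups of NTS, r was 0.73 (adjusted permutation p = 0.00735) and rho 0.57 (adjusted permutation p = 0.0721), with r = 0.52 without the 2 libraries farthest from the median. Without the libraries numbered 1, r in NTS was 0.47 (adjusted permutation p = 0.161) and rho 0.41 (adjusted permutation p = 0.242), so the relation was weaker and did not pass without those 2 libraries. In PVN r was 0.60 (adjusted permutation p = 0.0295) and rho 0.62 (adjusted permutation p = 0.0601). There r was 0.52 (adjusted permutation p = 0.161) and rho 0.61 (adjusted permutation p = 0.114) without the libraries numbered 1. In ARC r was 0.21 (adjusted permutation p = 0.781), and -0.0728 without them. No relation of the other 4 members with these genes had an adjusted permutation p under 0.05. The part of glucocorticoid-responsive genes in the Ramp2 level was not tested.

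**Figure D5:**
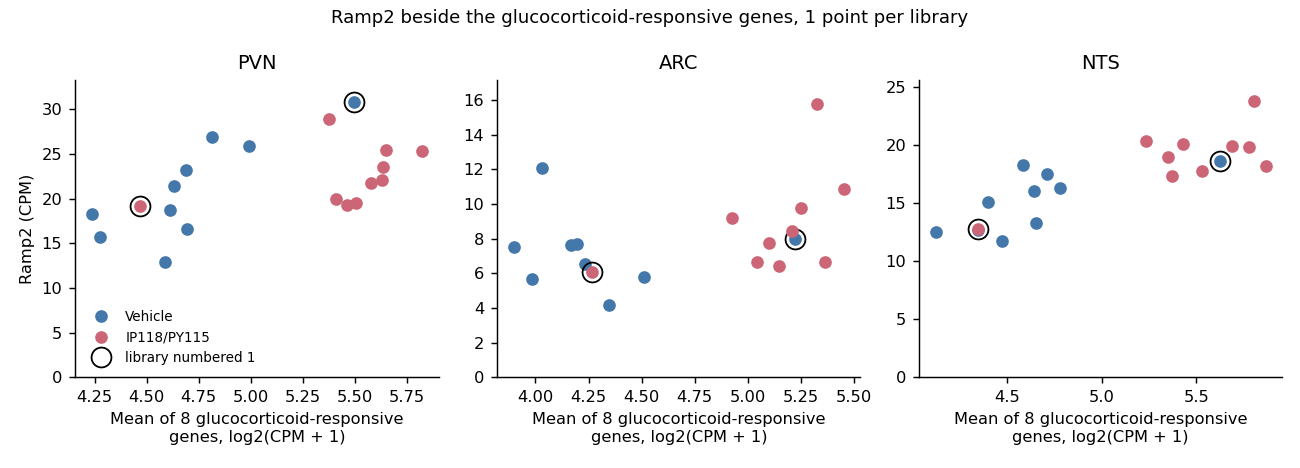
Ramp2 (vertical axis, CPM) against the mean of 8 glucocorticoid-responsive genes (horizontal axis, log2(CPM + 1)) in PVN, ARC and NTS, 1 point per library, with the libraries numbered 1 circled. In NTS vehicle 1 lies among the treated libraries on both axes, with Ramp2 at 18.7 CPM, and treated 1 lies among the vehicle libraries at 12.8 CPM.

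The genes whose levels were most like each member were sought in the 11709 genes that averaged 5 CPM or more. Over the 59 libraries, which share 3 regions and so mostly trace regional order, Calcr was nearest to Otp (r = 0.99), Stk32a (0.98) and Ssr1 (0.98). Otp is a homeobox gene of hypothalamic neurons and stood at 354 CPM in vehicle PVN, 244 CPM in ARC and 2.53 CPM in NTS. Calcrl was nearest to Mab21l2 (0.97), Zic4 (0.96) and Adcyap1 (0.96), the last encoding the neuropeptide PACAP. For Ramp1 these were Pltp (0.92), Dkk3 (0.92) and Chst8 (0.91), for Ramp2 Lypd1 (0.91), Ubash3b (0.91) and Serpinf1 (0.91), and for Ramp3 Pirt (0.93), Kcnip3 (0.92) and Olfm1 (0.92).

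With the group means removed, correlations were lower and the nearest genes were other ones. Calcr went with Irs4 (r = 0.68), an insulin receptor substrate of the hypothalamus, Gpx3 (0.68) and Gabre (0.67). Calcrl went with Agps (0.62), Pros1 (0.60) and Zmym2 (0.58), and Ramp1 with Ypel3 (0.66), Cyc1 (0.66) and Aes (0.65). Ramp2 went with Slc2a1 (0.61), the glucose transporter of the blood-brain barrier, Klf9 (0.60), which is one of the 8 glucocorticoid-responsive genes, and Igfbp7 (0.60). Ramp3 went with Nrn1 (0.63), Nsmf (0.60) and Prkcd (0.59). These are descriptions over 59 libraries that share depth and capture differences, with no test.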

How the data were processed

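The authors deposited 1 table of raw read counts per Ensembl gene, whose 59 columns were all used. Per the submitters' processing notes, reads were demultiplexed with bcl2fastq 2.20.0.422 and aligned with STAR 2.5.2a to GRCm38; the counter and its strand setting are not given in the sources used here. Per the labels' protocols, RNA was taken with NucleoSpin Plus columns and libraries with the TruSeq Stranded mRNA kit for NeoPrep. Of 21935 gene IDs, 21858 were matched to GENCODE M21, which also gave lengths and coordinates.

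Libraries were grouped by the region and treatment in their titles and numbered in accession order. Each region's treatment effect was fitted alone, and regions in a joint fit of 6 groups, with edgeR 4.0.16 in R 4.3.3 (filterByExpr with minimum count 10 and minimum total 15, TMM, robust quasi-likelihood test, two-sided, FDR under 0.05); the script was tested on simulated data. The labels tie no library to an animal, so regions, which share animals, were taken as independent, and p-values measure the spread between libraries. Shares were tested by permutation (100000 resamples, exact where a group had under 10), relations by permutation within groups on log2(CPM + 1). Precision is limited by the counts per library, and intervals do not cover PCR duplication. Alternatives were DESeq2 1.42.0, other scalings and filters, covariates and left-out libraries.

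The members and lists were chosen with earlier results of these data known. Named were all 5 members, all 5 ligands and, of the other lists, those of up to 4 smallest p in a comparison; the 3 nearest genes followed a fixed rule, and Shox2, Prkcd and Vps25 were chosen after their values were seen. Kiss1 was not analysed here. The other marker lists served only as checks of the captured tissue.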

Additional observations from a re-analysis of the deposited data

Results flagged for a closer look

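In 42 groups of 9 or 10 libraries tested over the 5 members, Calca and Adm, 4 held a library far from the others, and chance flags about 1 in 20 groups. Ramp2 in vehicle ARC was 12.1 CPM in library 2, where the next was 8.01 CPM and the lowest 4.18 CPM. Ramp2 in treated ARC was 15.8 CPM in library 2, where the next was 10.8 CPM and the lowest 6.06 CPM. Ramp3 in vehicle PVN was 7.96 CPM in library 8, where the next was 4.64 CPM and the lowest 2.24 CPM. Ramp3 in treated ARC was 16.7 CPM in library 1, which also carried Shox2 and Prkcd; the next was 7.78 CPM and the lowest 5.01 CPM.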

How the results depend on the processing

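No call of a member changed when any single library was left out. No paired analysis was possible because the labels give no replicate number shared by the groups and tie no library to an animal. The causes of the shifts below were not tested. Leaving out the ARC libraries with Shox2, the coding lengths and the glucocorticoid relations with their alternatives were chosen after seeing the data. Genes of low level, Ramp3 in PVN and all ligands, are limited by depth.

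Genes called between treatments numbered 88 in PVN, 0 in ARC and 0 in NTS. DESeq2 gave 209, 59 and 63, and leaving out the libraries numbered 1 gave 429, 153 and 162, with 1 member in NTS. In PVN the log10 library total as covariate gave 6, and leaving out libraries 5553 to 5557 gave 12. The endothelial covariate gave 16 in ARC and 30 in NTS, and leaving out the Shox2 libraries 24 in ARC. Without 1 library the counts ran from 8 (without treated PVN 8) to 276 (without vehicle PVN 1) in PVN. They reached up to 85 for ARC (without vehicle ARC 1) and up to 92 for NTS (without vehicle NTS 1), the lowest being 0 in both. Between vehicle regions the endothelial covariate gave 1978 genes and 2 members in place of 6610 and 5 for PVN against ARC, and 4949 genes and 3 members in place of 8874 and 5 for ARC against NTS. For the difference of treatment effects between PVN and ARC, the main count was 7, with 15 by DESeq2, 4 with no filter, 4 with the log10 total, 52 without the libraries numbered 1, 0 without 5553 to 5557, 2 without the Shox2 libraries and 2 to 24 without 1 library. Between PVN and NTS it was 13, with 20 by DESeq2, 62 without the libraries numbered 1, 4 without 5553 to 5557 and 1 to 23 without 1 library. Between ARC and NTS it was 0, with 3 by DESeq2, 35 without the libraries numbered 1 and 0 to 5 without 1 library.

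Some log2 estimates changed sign. With the endothelial covariate Ramp2 for PVN over NTS, which had been called at 0.48, became -0.11 and was not called; the other estimates named here were not called to begin with. For treatment these were Ramp3 in PVN by DESeq2 (-0.00299), and, without 5553 to 5557, Ramp2 in PVN (-0.10) and Ramp1 in ARC (0.0215). With the endothelial covariate Ramp1 for PVN over NTS became -0.27. For differences of effects, Ramp1 between PVN and ARC became -0.11 without 5553 to 5557 and -0.0335 without the Shox2 libraries. Between ARC and NTS, Calcrl, Ramp1 and Ramp3 became -0.0238, 0.0628 and 0.0614 without 5553 to 5557, and Ramp3 became 0.0854 without the Shox2 libraries. Without 1 library, the ranges that crossed 0 were, for treatment, -0.10 to 0.15 (Ramp3, PVN) and -0.14 to 0.00203 (Ramp1, ARC), and for differences of effects -0.0819 to 0.0585 (Ramp1, PVN and ARC), -0.0756 to 0.00560 (Ramp1, PVN and NTS), and, between ARC and NTS, -0.0417 to 0.11 (Calcrl), -0.10 to 0.0426 (Ramp1), -0.18 to 0.0727 (Ramp2) and -0.53 to 0.0329 (Ramp3).

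Of the shares, in percentage points, Ramp2 for ARC over NTS (0.596) became -0.162 with no length scaling and -0.109 with coding lengths, and ran from -0.757 to 1.62 without 1 library. Ramp1 for PVN over ARC (6.34) became 7.32 with coding lengths (adjusted permutation p = 0.0157) and 7.94 without the libraries numbered 1 (adjusted permutation p = 0.0398), and ran from 4.43 to 7.56. For ARC over NTS, Ramp1 ran from 5.38 to 8.51 and Ramp3 from -10.1 to -6.005, and without the Shox2 libraries they became 9.54 (adjusted permutation p = 0.00580) and -12.0 (adjusted permutation p = 0.00416). Both p-values are too small, since the libraries left out were singled out after their values were seen. With treatment in ARC, Ramp1 (-0.709) became 0.156 with coding lengths and 1.10 without the libraries numbered 1, and ran from -2.62 to 0.537. There Ramp3 (-4.49) became -8.10 without the libraries numbered 1 (adjusted permutation p = 0.0378) and -1.45 without the Shox2 libraries (adjusted permutation p = 0.508). The treatment difference of the Calcr share became 0.0194 in PVN without the libraries numbered 1, and ran from -0.287 to 0.0633 for ARC and, for NTS, from -2.42 to 0.201; that of Ramp3 in PVN ran from -0.682 to 0.481.

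Pearson r changed sign without the libraries numbered 1 for Calcr with Ramp1 in PVN (-0.0529), Calcrl with Ramp3 in ARC (-0.00203) and NTS (-0.24), and the endothelial mean with Calcrl (-0.0292) and Ramp3 (-0.0395) in NTS. With library totals alone Calcr with Ramp1 in PVN was -0.0513. Without the 2 farthest libraries r was -0.0304 for Calcr with Ramp1 in PVN, 0.0267 for Calcr with Ramp2 in ARC, -0.0227 for Calcrl with Ramp3 in ARC, 0.00467 for Calcrl with Ramp1 in NTS and -0.26 for Calcrl with Ramp3 in NTS.

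With the glucocorticoid-responsive mean, r changed sign without the libraries numbered 1 for Calcrl in PVN (0.18), ARC (0.16) and NTS (0.00504), Ramp1 in PVN (-0.39), Ramp2 in ARC (-0.0728) and Ramp3 in ARC (0.26). Without the 2 farthest libraries it did so for Calcrl in PVN (0.0991) and ARC (0.0901), Ramp1 in PVN (-0.31), Ramp2 in ARC (-0.0130) and Ramp3 in ARC (0.11).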
